A study of Mus musculus with 8 samples.

Results

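Klf2, Klf4 and Klf5 encode 3 members of the Krüppel-like factor family, zinc finger transcription factors that help to keep mouse embryonic stem cells in the naive state. The chromatin around these genes was examined through every ATAC-seq peak whose centre lay within 100 kb of the span of Klf2, Klf4 or Klf5 in the GRCm38 assembly. This gave 90 of the 134407 peaks measured, 39 around Klf2, 16 around Klf4 and 35 around Klf5. Of these, 50 had a Klf gene as their nearest protein-coding gene (10 for Klf2, 12 for Klf4 and 28 for Klf5). The other 40 lay nearer to Fam32a, Ap1m1, Eps15l1, Rad23b or Pibf1 and are given apart. Within these windows position was the only criterion for the 90 peaks. The 3 genes themselves were chosen with earlier results of these data known. Some peaks described singly below were picked because they were called or after their values were seen.

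ATAC-seq measures open chromatin through the insertion of sequencing adapters by the Tn5 transposase. The cells were wild-type E14 mouse embryonic stem cells, an established line, grown on gelatin in serum with LIF. The 4 control libraries came from cells under control conditions, and the 4 paused libraries from cells held for 24 h with 200 nM INK128, an inhibitor of the kinase mTOR. Each library was made from 50000 live cells, and all samples were of 1 cell line. The labels do not say whether replicates were separate cultures, so that p-values measure the spread between these samples, which may be technical.

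Klf2, Klf4 and Klf5 bind GC-rich and CACCC-type sequences through C2H2 zinc fingers at their carboxy-terminal end. In embryonic stem cells these factors overlap in their targets and can stand in for one another in part. Klf4 is induced by LIF through Stat3, Klf2 is sustained by Oct4 and restrained by Erk signalling, and Klf5 is also induced by LIF. Klf4 is known to be controlled in these cells by enhancers far downstream of the gene, so that promoter and distal peaks are treated separately below.

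The promoters differ in what the peak set holds there, and the 250 bases before the start sites of Klf2 and Klf4 are shown because of this (RefSeq, GRCm38.p6, coding strand, 5′ to 3′). Capitals mark the letters GGGCGG, the GC box bound by SP and KLF factors, and CACCC, each on either strand. The Klf2 window lies at chr8:72318812-72319061 on the plus strand, and the Klf4 window at chr4:55532476-55532725 on the minus strand.
Klf2: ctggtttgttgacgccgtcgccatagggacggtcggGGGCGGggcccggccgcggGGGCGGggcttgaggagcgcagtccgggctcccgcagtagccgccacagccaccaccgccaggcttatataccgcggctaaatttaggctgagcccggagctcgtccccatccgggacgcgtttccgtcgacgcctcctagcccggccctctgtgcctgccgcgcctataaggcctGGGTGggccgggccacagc
Klf4: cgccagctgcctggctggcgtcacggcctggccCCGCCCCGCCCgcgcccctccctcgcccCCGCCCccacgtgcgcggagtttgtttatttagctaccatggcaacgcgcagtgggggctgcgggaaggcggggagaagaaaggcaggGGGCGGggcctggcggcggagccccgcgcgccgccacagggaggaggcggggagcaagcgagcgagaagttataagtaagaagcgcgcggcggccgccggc
The Klf2 window holds 2 GGGCGG matches, 214 and 195 bases before the start, and 1 CACCC match on the opposite strand, 19 bases before the start. The Klf4 window holds 4 GGGCGG matches, of which the 2 farthest from the start (217 and 212 bases) overlap, and 0 CACCC matches. Neither window holds TTCNNNGAA, the form of a Stat3 site. Of 32851 RefSeq windows of the same length, 32.7% hold GGGCGG, 52.0% hold CACCC and 7.0% hold TTCNNNGAA, and the median GC content is 52.4%, against 71.2% for Klf2 and 74.0% for Klf4. The Klf2 promoter peak sits just upstream and shares 2 bases with the window. The Klf4 window lies under no peak, and no peak centre was found within 1 kb of the Klf4 start. A match of letters is a description and not a site of binding.

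Values below are scaled reads, the reads in a peak of 201 bp divided by 1 factor per library. They were compared by limma-trend on log2(value + 1) over the 127402 peaks with a mean of at least 10, with a Benjamini-Hochberg adjusted p under 0.05 taken as a call. Changes are paused minus control on that log2 scale, which understates the change of weak peaks. All peaks have 1 width, so that their levels can be compared with each other. In bulk samples, a change in the share of cells with an open site and a change within each cell cannot be told apart.

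Control replicate 3 had the fewest reads in peaks, 4434037, and control replicate 1 the most, 21161767; the paused libraries lay between 5216700 and 7238935. The median change of all tested peaks was 0.10 and rose with strength, to 0.20 in the strongest 10%. Of 5 embryonic stem cell markers (Pou5f1, Sox2, Nanog, Zfp42, Esrrb), 4 had a peak within 1 kb of a gene end, and these summed to 530 to 622 in control and 660 to 731 in paused libraries; Pou5f1 had none. The sums were 190 to 220 and 205 to 236 for 2 of 4 primitive endoderm genes, and 112 to 140 and 140 to 170 for 3 of 4 trophoblast genes. They were 325 to 391 and 331 to 410 for 3 of 4 formative or primed genes, and 262 to 353 and 324 to 383 for 3 of 3 fibroblast genes. An accessible promoter is not expression, and the part of these shifts in the results below was not tested.

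Near the 3 Klf genes, single peaks were called in paused against control cells at about the share of all tested peaks. Of the 49 tested peaks 40 were distal. Only 3 lay within 1 kb of the Klf2 start or of a Klf5 end, too few to compare with the distal ones. Of the 49 tested peaks nearest to a Klf gene, 6 rose and 1 fell (14.3% called, against 13.9% of all tested peaks; 12.2% higher, against 11.0%; 2.91% of all tested peaks were lower). The share called was thus near the background. Over all peaks, 79.0% of the calls were higher, but 59.1% after TMM rescaling, 45.7% after rescaling to equal totals and 59.3% after loess correction, which lowered the median change by 0.10 to 0.15. The median change of the 49 peaks was 0.19, against 0.10 for all tested peaks. Of the 6 rises, 5 were distal and 1 lay inside Klf5, and the 1 fall was distal. The 3 tested peaks within 1 kb of a start or end had changes between -0.02 and 0.21, and 0 of them was called by limma-trend, with 1 at an unadjusted p under 0.05; 11.7% of all peaks within 1 kb of a gene end were called (10.4% higher, 1.25% lower). Of the 40 tested distal peaks 15.0% were called, against 14.2% of all peaks over 1 kb from a gene end (12.5% higher, against 11.0%, and 1 peak lower, against 3.15%). The background set also holds peaks inside genes, which the 40 do not. In 11 of the 49 peaks every paused library was above every control library, and in 1 every paused library was below, against 13.0% and 4.36% of all tested peaks.

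**Figure D1:**
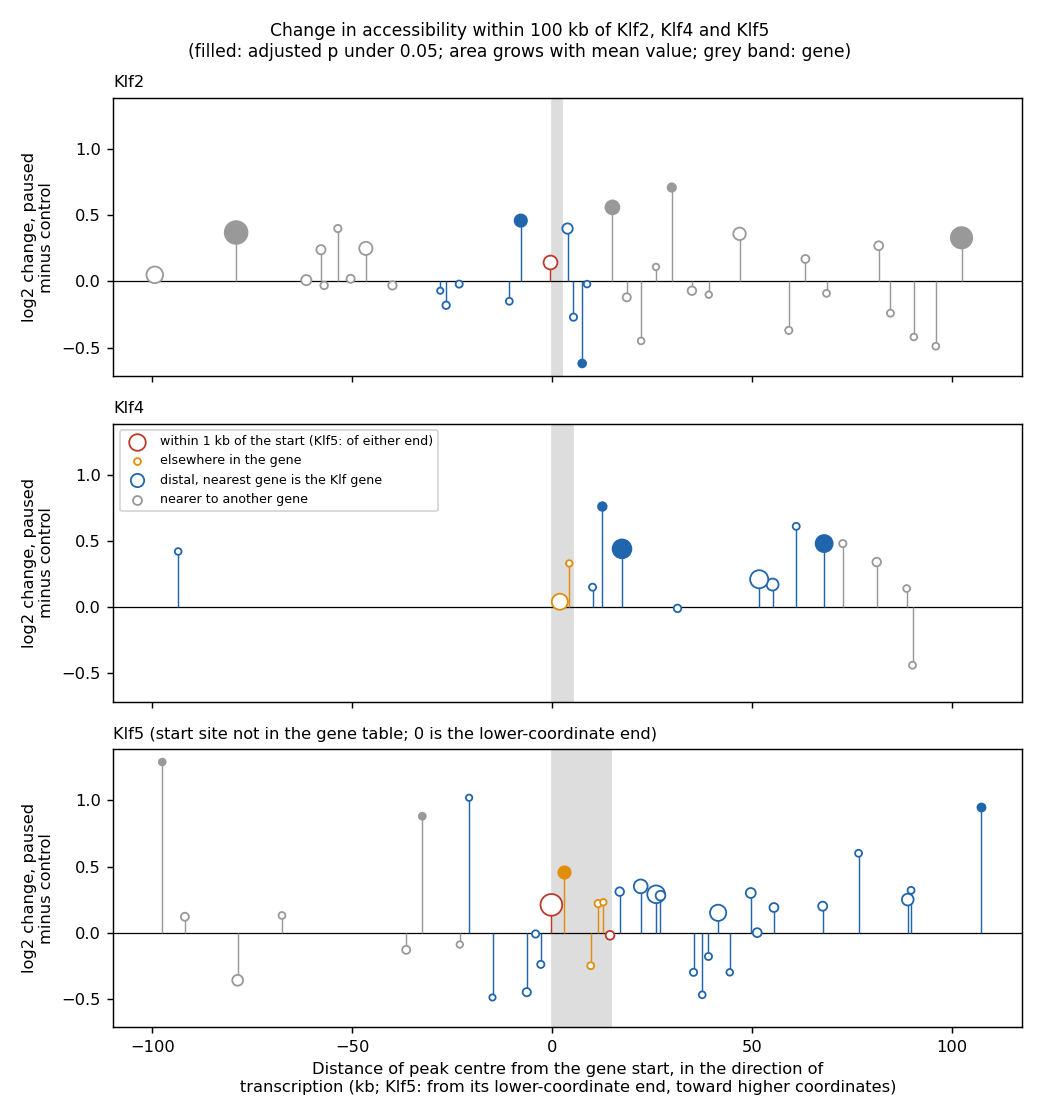
Log2 change (paused minus control) of each tested peak against the distance of its centre from the gene start in kb (for Klf5, from its lower-coordinate end), with 1 panel per gene. Filled points passed an adjusted p of 0.05, point area grows with the mean value, and the grey band is the gene. The called Klf4 peaks all lie downstream of the gene, and the larger open orange point in the Klf4 band is the peak inside the gene with a change of 0.04.

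Of the 11 tested Klf4 peaks, 3 rose (27.3%, against 11.0% of all tested peaks) and 0 fell, but after loess correction for peak strength 1 was called. The 3 lay downstream of the gene, in a stretch with no other protein-coding gene before Rad23b. The farthest, 62.8 kb past the gene's 3′ end (chromosome 4, 55464254 to 55464454), had values of 188, 186, 198 and 198 in the control and 258, 279, 251 and 291 in the paused libraries. Every paused library was above every control library, and the control values lay close together. The mean went from 193 ± 6.42 to 270 ± 18.2 (SD, n = 4), a log2 change of 0.48 (SE 0.11, limma-trend adjusted p = 0.00207), on 117 to 544 reads per library. The peak was among the strongest 10% of all tested peaks, of which 18.2% were called (18.0% higher and 0.181% lower).

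The strongest distal peak of Klf4, 12.2 kb past the 3′ end (chromosome 4, 55514826 to 55515026), read 211, 256, 247 and 257 in control and 275, 319, 396 and 333 in paused libraries. Again the groups did not overlap, with paused replicate 3 the highest. The log2 change was 0.44 (SE 0.11, limma-trend adjusted p = 0.00763), from 243 ± 21.5 to 330 ± 50.1 (SD, n = 4). A weaker neighbour 7.3 kb past the 3′ end (chromosome 4, 55519744 to 55519944) had 32.1, 35.8, 25.4 and 27.9 in control and 50.8, 63.1, 59.0 and 37.5 in paused libraries. It had the largest change of the 3, 0.76 (SE 0.19, limma-trend adjusted p = 0.00657), on 15 to 93 reads per library. Paused replicate 4 was the lowest of its group and only just above the highest control. All 3 calls held when any 1 of the 8 libraries was left out. After loess correction for peak strength, the changes at 62.8 and 12.2 kb were 0.27 and 0.23 and no longer called (limma-trend adjusted p = 0.0683 and 0.117), while that at 7.3 kb was 0.64 (adjusted p = 0.031).

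Between these called elements, other strong Klf4 peaks did not pass. The peak 46.5 kb downstream (chromosome 4, 55480505 to 55480705) had 239, 240, 251 and 247 in control and 263, 274, 306 and 291 in paused libraries. The groups did not overlap, but the log2 change of 0.21 was close to the median of 0.20 of the strongest 10% (SE 0.10, limma-trend adjusted p = 0.171). The peak 49.9 kb downstream (chromosome 4, 55477154 to 55477354) went from 97.0 ± 20.7 to 107 ± 10.5 (SD, n = 4), with overlapping groups and a log2 change of 0.17 (limma-trend adjusted p = 0.469). A weak peak 55.8 kb downstream (chromosome 4, 55471240 to 55471440) read 16.2 ± 3.74 and 24.8 ± 3.74 (SD, n = 4), with no overlap and a log2 change of 0.61 that did not pass (limma-trend adjusted p = 0.113); it was named after its values were seen. On the upstream side, 1 peak lay nearest to Klf4, 93.5 kb away inside the non-coding gene Gm12506, and its log2 change of 0.42 did not pass (limma-trend adjusted p = 0.328). A further downstream peak, at 64.7 kb, had a mean of 9.04 and was not tested.

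In place of a promoter peak, the Klf4 peak nearest to the start lay 1992 bp from it, inside the gene (chromosome 4, 55530383 to 55530583). It had 179, 183, 230 and 203 in control and 193, 167, 247 and 218 in paused libraries. The groups overlapped across nearly their whole range, and the log2 change was 0.04 (SE 0.12, limma-trend adjusted p = 0.847). Its direction was negative after TMM rescaling (-0.06), rescaling to equal totals (-0.11) and loess correction (-0.16). Its place among the exons and introns of Klf4 was not analysed here.

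Summed over peaks, the 10 distal Klf4 peaks read 855 to 936 in control and 1045 to 1215 in paused libraries, a ratio of means of 1.28. The 2 peaks inside the gene read 188 to 246 and 189 to 255, a ratio of 1.05. The same ratio was 1.12 over all peaks of the table. These sums are a description of chosen peaks, and no test was made of them.

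**Figure D2:**
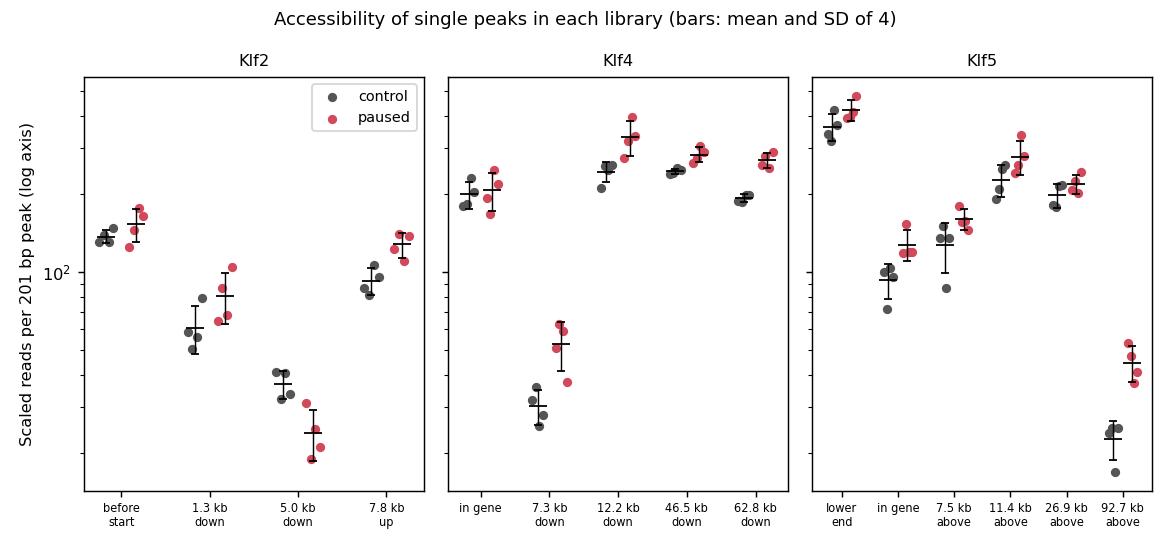
Scaled reads per 201 bp peak (log axis) in each of the 4 control and 4 paused libraries, for peaks of Klf2, Klf4 and Klf5 named by their distance from the gene; bars give the mean and SD. The Klf4 peaks 12.2 and 62.8 kb downstream have all paused points above all control points, while the Klf4 peak inside the gene has overlapping groups.

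Klf5 held the strongest peak of the 50, at its lower-coordinate end. The gene table gives no strand for Klf5, so that both ends of the gene were used. The peak centred 122 bp outside the lower end (chromosome 14, 99298469 to 99298669) had 341, 320, 422 and 367 in control and 392, 396, 414 and 477 in paused libraries. Control replicate 3 lay within the paused range, and the log2 change of 0.21 did not pass (SE 0.11, limma-trend adjusted p = 0.17). The upper-end peak (chromosome 14, 99313145 to 99313345) was weaker, with 44.2 ± 5.77 in control and 44.1 ± 10.03 in paused libraries (SD, n = 4), a change of -0.02 (SE 0.19; adjusted p = 0.953 in limma-trend).

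Of the 28 tested Klf5 peaks, 2 rose (7.1%, against 11.0% of all tested peaks) and 0 fell (against 2.91%). After rescaling to equal totals 1 rose and 1 fell. Of the 2 rises before rescaling, 1 lay inside the gene, 2996 bp from the lower end (chromosome 14, 99301587 to 99301787). It had 99.9, 71.7, 103 and 95.5 in control and 118, 153, 119 and 120 in paused libraries. No paused value fell to the control range, and paused replicate 2 stood above the other three. The log2 change was 0.46 (SE 0.14, limma-trend adjusted p = 0.0202). It lost its call without control replicate 2 (0.34, adjusted p = 0.0947), without paused replicate 2 (0.37, adjusted p = 0.0962) and after loess correction (0.27, adjusted p = 0.232), all in limma-trend.

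The other called Klf5 peak lay 92.7 kb past the upper end (chromosome 14, 99405991 to 99406191). It had 23.9, 25.1, 16.9 and 25.0 in control and 53.1, 47.3, 37.2 and 41.0 in paused libraries. All paused values were well above the control values, although the peak held as few as 10 reads in a library. The mean went from 22.7 ± 3.89 to 44.7 ± 6.98 (SD, n = 4), a log2 change of 0.95 (SE 0.21, limma-trend adjusted p = 0.00172). This call held in all 18 alternatives that gave it a value, with changes from 0.80 to 1.03. The next coding gene beyond it is Klf12, another member of the family, and the peak is nearer to Klf5.

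The strong distal peaks of Klf5 lay together beyond its upper end. With all libraries and the filter at a mean of at least 10, their changes did not pass in limma-trend without covariates. The strongest, 11.4 kb away (chromosome 14, 99324679 to 99324879), had 192, 209, 249 and 257 in control and 240, 257, 337 and 279 in paused libraries (change 0.29 ± 0.12 SE; adjusted p = 0.0899 in limma-trend). The peak 7.5 kb away (chromosome 14, 99320821 to 99321021) had 135, 150, 86.4 and 135 in control and 180, 156, 157 and 145 in paused libraries (change 0.35 ± 0.14 SE; adjusted p = 0.0766 in limma-trend). Without control replicate 2 the change at 7.5 kb was 0.45 and passed (limma-trend adjusted p = 0.0318), and without control replicate 3 it was 0.18 (adjusted p = 0.392). In both, the highest control library lay within the paused range. The peak 26.9 kb away (chromosome 14, 99340191 to 99340391) changed less, from 197 ± 20.3 to 219 ± 18.6 (SD, n = 4; log2 change 0.15, limma-trend adjusted p = 0.399). Peaks 35.0 and 74.3 kb away (chromosome 14, 99348353 to 99348553 and 99387633 to 99387833) had log2 changes of 0.30 and 0.25 (limma-trend adjusted p = 0.19 and 0.206). Over all 22 distal Klf5 peaks the sum was 1124 to 1249 in control and 1327 to 1390 in paused libraries, a ratio of 1.15, near the 1.12 of the whole table. The weak peak 20.7 kb below the lower end (chromosome 14, 99277887 to 99278087) was named after its values were seen. Its log2 change of 1.02, on as few as 2 reads, did not pass (limma-trend adjusted p = 0.0503). In limma-trend it passed without control replicate 1 (1.21, adjusted p = 0.0441) or control replicate 4 (1.19, adjusted p = 0.0377). With all libraries it passed in limma-trend after loess correction (1.20, adjusted p = 0.0281) and with no filter on the mean (1.02, adjusted p = 0.0482). It was not called after TMM rescaling, by edgeR with TMM or by DESeq2.

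Klf2 is the shortest of the 3 genes, at 2593 bp, and lies between Ap1m1 and Eps15l1. Its promoter peak, centred 349 bp before the start (chromosome 8, 72318613 to 72318813), had 130, 139, 130 and 147 in control and 125, 145, 177 and 164 in paused libraries. The paused libraries spread on both sides of the control range. The log2 change was 0.15 (SE 0.12, limma-trend adjusted p = 0.453), and it was -0.01 after rescaling to equal totals and -0.05 after loess correction.

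Among the 10 tested Klf2 peaks, 1 rose (10.0%, against 11.0% of all tested peaks) and 1 fell (against 2.91%). The strongest distal peak, 7.8 kb upstream (chromosome 8, 72311186 to 72311386), had 86.4, 81.2, 107 and 95.5 in control and 122, 140, 110 and 137 in paused libraries. Paused replicate 3 was only just above control replicate 3, and the groups did not overlap. The log2 change was 0.46 (SE 0.13, limma-trend adjusted p = 0.0163). The peak that fell lay 5.0 kb downstream (chromosome 8, 72326548 to 72326748), with 41.1, 32.3, 40.6 and 33.8 in control and 31.1, 18.9, 24.8 and 21.1 in paused libraries. It was weak, with 12 reads in its poorest library, and its log2 change of -0.62 was just past the threshold (SE 0.21, limma-trend adjusted p = 0.0469).

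Both Klf2 calls lay near the threshold, with changes of 0.40 to 0.53 and of -0.75 to -0.52 when single libraries were left out. The rise at 7.8 kb was not called without control replicate 1 (0.43), control replicate 2 (0.40), paused replicate 2 (0.41) or paused replicate 4 (0.42), with limma-trend adjusted p from 0.0515 to 0.0633, nor after loess correction (0.26, adjusted p = 0.213). The fall at 5.0 kb lost its call without any 1 of the 4 control libraries (-0.57, -0.68, -0.57 and -0.66 without replicates 1 to 4) or without paused replicates 2, 3 or 4 (-0.52, -0.64 and -0.57), with limma-trend adjusted p up to 0.142. The peak 1.3 kb downstream (chromosome 8, 72322888 to 72323088) had 58.4, 50.2, 55.9 and 79.4 in control and 64.6, 86.8, 68.3 and 104 in paused libraries. These groups overlapped, and the log2 change of 0.40 did not pass (SE 0.16, limma-trend adjusted p = 0.0977) but did without control replicate 4 (0.53, adjusted p = 0.039). Peaks 26.5 kb upstream and 2.8 kb downstream (chromosome 8, 72292509 to 72292709 and 72324369 to 72324569) had log2 changes of -0.18 and -0.27 (limma-trend adjusted p = 0.69 and 0.497). Over the 9 distal Klf2 peaks the sum was 253 to 363 in control and 318 to 397 in paused libraries, a ratio of 1.10.

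To compare promoter and distal accessibility directly, the peak at each gene was set against its strongest distal peak within each library. Distal peaks were ranked on the mean over all 8 libraries, paused ones included. At Klf4 the peak 12.2 kb downstream then led, while in control libraries alone the peak 46.5 kb downstream was slightly the stronger (244 against 243). The choice of the 12.2 kb peak thus used its paused values, and what it gave is a description rather than a test. The peak inside the gene minus the peak 12.2 kb downstream, as a difference of log2(value + 1), was -0.23, -0.48, -0.10 and -0.34 in control and -0.51, -0.93, -0.68 and -0.61 in paused libraries. The groups did not overlap, and the difference moved by -0.39 (SE 0.12) toward the distal peak, with an exact two-sided permutation p of 0.0857 once adjusted over the 3 genes. Against the 46.5 kb peak, the strongest in control libraries, it moved by -0.17 (exact permutation p = 0.143, adjusted 0.257). With 4 against 4 libraries and 70 arrangements, p cannot go below 0.0286 before adjustment. Klf4 with the 12.2 kb peak was at this floor. Adjusted over the 3 genes, a single gene at the floor reaches 0.0857, so that 1 gene alone could not pass.

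At Klf2 the promoter peak minus the peak 7.8 kb upstream was 0.56 ± 0.20 in control and 0.25 ± 0.30 in paused libraries (SD, n = 4; change -0.31, SE 0.18, exact permutation p = 0.171, adjusted 0.257). The 4 paused values, 0.03, 0.05, 0.68 and 0.26, overlapped the control values. At Klf5 the end peak minus the peak 11.4 kb away was 0.68 ± 0.14 and 0.60 ± 0.21 (SD, n = 4; change -0.08, SE 0.13, exact permutation p = 0.629, adjusted 0.629). The sign was negative at all 3 genes, but that of Klf5 was positive without paused replicate 3 (0.02). After adjustment 0 of 3 passed, which decides little because 1 gene alone could not pass.

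**Figure D3:**
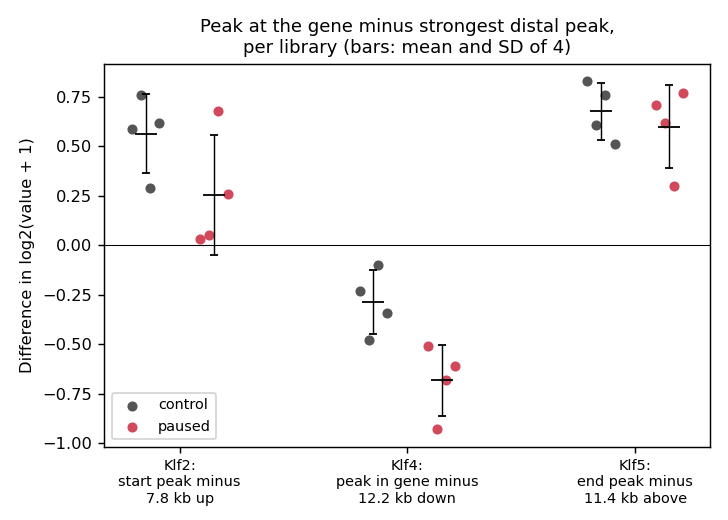
Difference in log2(value + 1) between the peak at each gene and its strongest distal peak, in each of the 4 control and 4 paused libraries, with the mean and SD as bars. The Klf4 groups are apart, at -0.29 and -0.68 on average, with a distal peak ranked partly by its paused values, and the Klf2 and Klf5 groups overlap.

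In level, the peaks at the 3 genes kept an order in control libraries that did not depend on the replicate. The Klf5 end peak (320 to 422) was above the Klf4 peak inside the gene (179 to 230), and that above the Klf2 promoter peak (130 to 147). In each paused library the Klf5 peak was again above the rest. The Klf4 peak was again above that of Klf2 (193, 167, 247 and 218 against 125, 145, 177 and 164). Only across libraries did the paused ranges of Klf4 (167 to 247) and Klf2 (125 to 177) overlap. Among the distal peaks in control, those of Klf4 at 46.5 kb (244 ± 5.70) and 12.2 kb (243 ± 21.5), Klf5 at 11.4 kb (227 ± 31.5) and at 26.9 kb (197 ± 20.3), and Klf4 at 62.8 kb (193 ± 6.42) followed each other with neighbours within 1 SD. In paused libraries the Klf4 peak at 12.2 kb led with 330 ± 50.1, followed by Klf4 at 46.5 kb (283 ± 18.6), Klf5 at 11.4 kb (278 ± 42.2), Klf4 at 62.8 kb (270 ± 18.2) and Klf5 at 26.9 kb (219 ± 18.6; SD, n = 4 throughout). The Klf4 peaks at 12.2 and 46.5 kb, nearly level in control, thus differed by about the SD of the first in paused cells.

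Strength and change went together near the Klf genes as in the whole table. Of the 12 peaks with a mean over 100, all had a positive change, with a median of 0.25 (0.20 for all peaks of that strength), and 4 were called higher, against 19.5% of all such peaks. Of the 33 tested peaks with a mean under 50, 14 had a positive change, with a median of -0.01, against 0.01 for all peaks of that strength. The strongest 10% of all peaks included 7 peaks of the Klf genes, 4 of them of Klf4. Their median change was 0.21, against 0.20 for all peaks there, and 2 were called higher (28.6%, against 18.0% of all peaks there).

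**Figure D4:**
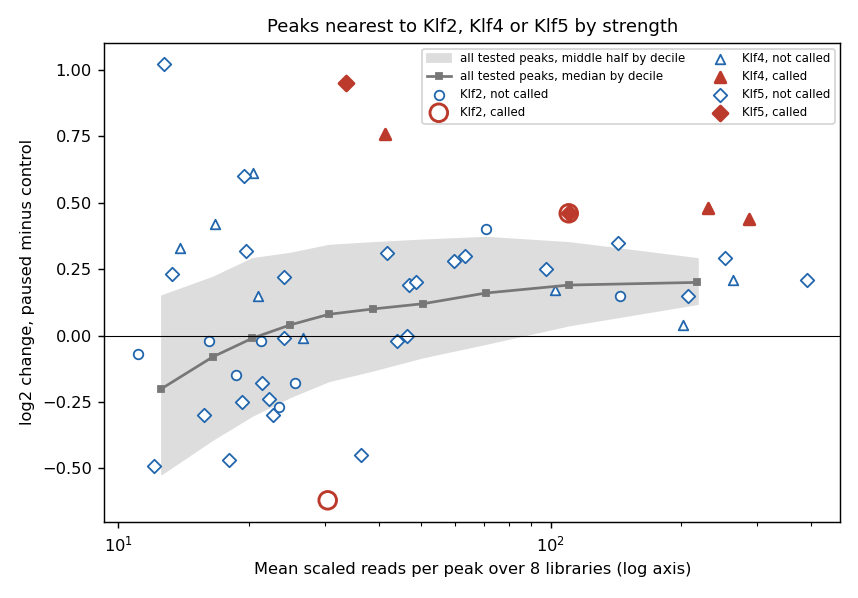
Log2 change (paused minus control) against the mean scaled reads over the 8 libraries (log axis) for the tested peaks nearest to Klf2 (circles), Klf4 (triangles) and Klf5 (diamonds), called ones in red. The grey line and band give the median and the interquartile range of all tested peaks in 10 classes of strength, rising from -0.20 to 0.20, and the called rises lie above the upper edge of the band or past its right end, with those of Klf2 and Klf5 drawn over each other at a change of 0.46.

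Of the 36 tested peaks in the same windows that were nearer to another gene, 6 rose and 0 fell. The share higher was 16.7%, against 11.0% of all tested peaks, of which 2.91% were lower. The clearest in the Klf2 window lay 12.6 kb downstream of Klf2, between it and Eps15l1 and nearer to the latter (chromosome 8, 72334114 to 72334314). It had 102, 106, 127 and 135 in control and 141, 191, 158 and 206 in paused libraries, with no overlap, a log2 change of 0.56 (SE 0.13, limma-trend adjusted p = 0.00353) and, after loess correction, one of 0.35 that did not pass (adjusted p = 0.0682). The change of 0.71 at a peak inside Eps15l1 (chromosome 8, 72348957 to 72349157; limma-trend adjusted p = 0.0109) held in all 8 fits that left out 1 library. The peak at the far end of Ap1m1, 79.0 kb upstream of Klf2 (chromosome 8, 72239966 to 72240166) rose by 0.37 (limma-trend adjusted p = 0.0144), and lost its call without control replicate 1 (0.30, adjusted p = 0.0587) or paused replicate 3 (0.29, adjusted p = 0.062).

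In the Klf5 window the 2 called peaks nearer to Pibf1 were weak. The first, inside Pibf1 (chromosome 14, 99201111 to 99201311), had 8.64, 11.9, 6.77 and 11.8 in control and 27.7, 22.1, 24.8 and 24.6 in paused libraries, the largest change of all 85 tested peaks at 1.29 (SE 0.29, limma-trend adjusted p = 0.00227). The second (chromosome 14, 99266174 to 99266374) changed by 0.88 (limma-trend adjusted p = 0.0461) and was not called without control replicate 4 (0.57), paused replicate 1 (0.94), paused replicate 2 (0.83) or paused replicate 3 (0.71), with adjusted p from 0.0621 to 0.2. Of the 4 peaks nearer to Rad23b, 0 were called by limma-trend and 0 had an unadjusted p under 0.05.

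The authors' deposited table was set beside these results. Its log2 folds are 0.43, 0.39 and 0.50 for the Klf4 peaks 62.8, 12.2 and 7.3 kb downstream (FDR 0.000204, 0.00292 and 0.0119), 0.40 for the Klf2 peak 7.8 kb upstream (FDR 0.00852) and -0.36 for that 5.0 kb downstream (FDR 0.0857). For the Klf5 peaks the authors' deposited table lists 0.35 inside the gene (FDR 0.0256) and 0.66 at 92.7 kb (FDR 0.00199). The Klf2 fall is thus the 1 of the 7 called peaks above an FDR of 0.05 there. The same libraries underlie both.

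The other genes of the family and of the network were described through peaks within 50 kb of a gene end. For 23 other Klf and Sp genes, 30 of 185 tested peaks were higher and 7 lower (16.2% higher, against 11.0% of all tested peaks; median change 0.15, against 0.10). Of their 23 peaks within 1 kb of a gene end 2 were higher (8.7%, against 10.4% of all such peaks), among them that of Klf14 (97.7 ± 19.8 to 133 ± 21.6, SD, n = 4), which changed by 0.45 (SE 0.14; adjusted p = 0.0276 in limma-trend). The end peaks of Sp1 and Klf9, broadly expressed relatives, had changes of 0.28 and 0.26 that did not pass (limma-trend adjusted p = 0.066 and 0.0748). By the same measure Klf2, Klf4 and Klf5 themselves had 4 of 41 peaks higher and 1 lower (9.8% higher, median 0.15).

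Of all tested peaks 11.0% were higher and 2.91% lower. Genes that feed into the Klf genes through LIF, Stat3 and Erk had 17 of 118 peaks higher and 2 lower (14.4% higher, median 0.11). The end peaks of Stat3, the factor activated by LIF (291 ± 20.4 to 337 ± 14.4; SD, n = 4; log2 change 0.22), and of Lifr, the LIF receptor (0.36), did not pass (limma-trend adjusted p = 0.155 and 0.144). That of Map2k2, which encodes a kinase of Erk, rose by 0.36 (limma-trend adjusted p = 0.03). For the 12 partners of the naive network, 30 of 188 peaks were higher and 4 lower (16.0% higher, median 0.15), and of 14 peaks within 1 kb of a gene end 4 were higher (28.6%, against 10.4% of all such peaks). These included the end peaks of Tbx3 (log2 change 0.42), Zfp42 (0.40) and Gbx2 (0.32), with limma-trend adjusted p of 0.00936, 0.0117 and 0.0287. All 3 were strong peaks, and of the strongest 10% of all tested peaks 18.0% were higher. The strongest end peaks of Sox2, Nanog, Esrrb, Tfcp2l1, Prdm14, Nr0b1 and Sall4 did not pass, with changes from -0.02 (Sall4) to 0.49 (Esrrb). Peaks of 1 gene are not independent, and no difference between these lists was tested.

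The promoter peaks elsewhere whose pattern was most like those of the Klf genes were sought by Pearson's r of log2(value + 1) over the 8 libraries, among 16164 peaks within 1 kb of a gene end (16163 for Klf5). For the Klf2 promoter peak they were at Gcsh (r = 0.987), Fn1 (0.974) and Gm15246 (0.969). For the Klf4 peak inside the gene they were at Ccng1 (0.982), Phf3 (0.976) and Coa6 (0.973), and for the Klf5 end peak at Sra1 (0.989), Asrgl1 (0.973) and Tubg1 (0.967). An r above 0.9 was reached by 104, 86 and 109 peaks, and all of them share the 8 libraries and their scaling.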

How the data were processed

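ATAC-seq of 4 control and 4 paused libraries was analysed from 1 deposited table. The submitters' processing notes name Bowtie2 2.4.1, MACS3 3.0.3, DiffBind 3.16.0, Trim Galore, FastQC and mm10, with no role or order; read filters and the handling of the Tn5 offset are not given in the sources used here. The authors deposited a signal for each peak and library. Its values were whole multiples of 1 step per library (100.0% of values in each, within rounding to 2 decimals), so that reads before scaling could be recovered. Per the file headers the authors also deposited log2 folds and means and the p-value and FDR of their own comparison, used only where named. All per-sample columns were used (0 left out).

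limma-trend (limma 3.58.1, R 4.3.3) was run without covariates on log2(value + 1) over 127402 peaks. On the recovered reads edgeR 4.0.16 called 16142 peaks with TMM and 21046 with the deposited factors, DESeq2 1.42.0 called 5794, and limma-trend 17660. With 200 simulated peaks changed, limma-trend recovered 92 of 111 changed by log2 1 and 88 of 89 changed by 1.5, with 2 unchanged peaks called among 127402 tested. Weak peaks were left out of the changed ones, and all peaks had a common dispersion. No shift shared by all peaks or rising with strength was simulated, so that the 2 false calls do not cover such a shift. Changes below log2 1, as at the called peaks nearest to a Klf gene, were not simulated. A peak with 0 reads allows up to 3 reads, which is 1.04 on the scaled axis for the deepest library and 5.08 for the shallowest; this covers counting error only. Genes came from RefSeq GRCm38.p6, and 41.75% of gene ends had a peak within 1 kb, against 17.75% and 17.86% after shifts of 50000 bp.

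Start sites of Klf2 and Klf4 came from the RefSeq promoter table. The nearest gene is the protein-coding gene with the nearest span. Named peaks were those within 1 kb of a start (Klf5: of either end), the 5 strongest distal peaks of each gene, up to 8 called peaks of each gene, and up to 3 called peaks per window nearer to another gene; for Klf4 the peak nearest to the start was taken since none was within 1 kb. Members, gene lists and tests were chosen with earlier results of these data known.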

Additional observations from a re-analysis of the deposited data

Results flagged for a closer look

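In 58 groups of 4 values (26 named peaks and 3 differences between peaks, in control and in paused libraries), 4 had 1 library far from the other three, by a gap relative to the range above Dixon's 95% critical value. Chance sets about 1 in 20 such groups apart. At the Klf2 peak 2.8 kb downstream, 1 control library read 41.15 and the next highest 22.01. At the Klf5 peak 92.7 kb past the upper end, the lowest control library read 16.93 and the next 23.85. At the peak inside Klf5, the highest paused library read 153.0 and the next 119.5. At the weak peak nearer to Pibf1 (chromosome 14, 99266174 to 99266374), the lowest control library read 5.88, on 4 reads, and the next 15.24.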

How the results depend on the processing

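Of 2 Klf2 peaks called, the rise was called with a mean of at least 50, where the fall was not tested. After TMM rescaling, rescaling to equal totals or loess correction, only the fall was called. DESeq2 called 0, and 0 to 2 were called when 1 library was left out. Of 3 Klf4 peaks, only that at 7.3 kb was called after loess correction and only that at 62.8 kb by DESeq2. No Klf4 call thus held under both, while all 3 held without any single library. Against 2 for Klf5, only that at 92.7 kb was called after TMM rescaling, by edgeR with TMM or by DESeq2. Within 50 kb only that inside the gene was left, and 1 to 3 were called without single libraries. Rescaled to equal totals, Klf5 had 1 rise and 1 fall, the latter at a peak 6.3 kb below the lower end (-0.60, limma-trend adjusted p = 0.0431). Over the table, DESeq2 called 5794 peaks, loess correction left 10956 and a mean of at least 50 left 10910 of 45273 tested, against 17660. Leaving out paused replicate 4 gave 11570. The cause of these shifts was not tested.

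Control and paused libraries share replicate numbers, but deviations of same-numbered libraries correlated by 0.079, 0.036, 0.133 and 0.039, and not each library correlated best with its own number. With the replicate block 5 Klf5 peaks, 3 Klf4 peaks and 2 Klf2 peaks were called, and 21994 in all. The Klf5 peaks gained with the block were those 11.4 and 7.5 kb above and 20.7 kb below the gene (limma-trend adjusted p = 0.0303, 0.0403 and 0.0383). With a mean of at least 50 the 7.5 kb peak also passed (0.0493), as did the 11.4 kb peak in edgeR with the deposited factors (0.0496).

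Against the distal peak strongest in control libraries, an alternative added after seeing the data like the second strongest peak and edgeR with the deposited factors, the difference at Klf4 was -0.17. The difference between end and distal peak at Klf5 was positive without paused replicate 3 (0.02) and against the second strongest distal peak (0.06). Without single libraries it ran from -0.14 to 0.02 at Klf5, from -0.45 to -0.24 at Klf2 and from -0.45 to -0.31 at Klf4. Changes of peaks that were not called turned sign in places. The Klf2 promoter peak was at -0.01 with equal totals and -0.05 with loess. The peak inside Klf4 was at -0.06 with TMM, -0.11 with equal totals, -0.16 with loess, -0.03 by edgeR with TMM, -0.04 by DESeq2, and ran from -0.05 to 0.14 without single libraries, with -0.0025 without control replicate 1. The Klf4 peak at 49.9 kb was at -0.03 with loess. The Klf5 peak at 26.9 kb was at -0.01 with equal totals and -0.06 with loess. That at the upper end of Klf5 was at 0.05 without control replicate 1, 0.10 without paused replicate 2 and 0.03 without paused replicate 3. Few reads limit the weak peaks most, down to 2 in the weakest one named.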
